A study of Homo sapiens with 3 samples.

Results

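The peaks described here are all those that 2 deposited GoldCLIP peak lists place on a sequence named chrR. Membership went by that sequence name, but the set was picked with its high scores already known, so its ranks are a description only. There were 47 of these peaks among 408413. The RPL22-HaloTag list held 19 of its 154000 peaks there and the RPL22L1-HaloTag list 28 of its 254413. GoldCLIP is a crosslinking method in which a HaloTag fixes its fusion partner to beads by a covalent bond, so that crosslinked RNA can be washed under denaturing conditions and sequenced. The cells were HCT116, an established human colorectal carcinoma line, with expression of RPL22-HaloTag in one library and of RPL22L1-HaloTag in the other. Another library, from cells expressing HaloTag without a ribosomal protein, was not analysed here, so no background from it stands beside any value. The promoter and the clonality of the cells are not given in the sources used here. With 1 library per group there is no spread between replicates and no test between groups. Every value describes these libraries, and each interval covers counting error only, as an exact 95% binomial (Clopper-Pearson) interval.

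RPL22 belongs to the large ribosomal subunit, where it is bound to 28S rRNA near the exit of the tunnel through which the new protein chain leaves, and it is also known to bind RNAs outside the ribosome. RPL22L1 is its close paralog and can take its place in the ribosome. Human rRNA is transcribed by RNA polymerase I as a long 45S precursor. Its external and internal transcribed spacers are cut away to leave 18S rRNA, which forms the small subunit, and 5.8S and 28S rRNA, which with 5S rRNA form the large subunit. Between precursors lies a long intergenic spacer. The copies of this repeat are nearly identical, so some mapping references add a single copy as a sequence of its own, and published references of that kind have used the name chrR. Whether one of these was used here is not stated in the sources, and positions are given from 1 at the start of chrR as the lists use it. The sequence of chrR was not used here.

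The name was checked against the layout of a 45S unit. In the RefSeq gene table of GRCh38.p14 the unit RNA45SN1 lies on chromosome 21 at 8433222 to 8446572, with the gene for 18S rRNA (RNA18SN1) at 8436876 to 8438744, that for 5.8S (RNA5-8SN1) at 8439822 to 8439978 and that for 28S (RNA28SN1) at 8441146 to 8446211. The spacing of these genes was laid on chrR at every whole-base offset, and the summits of both lists that fell inside the mature genes were counted. The highest count was 29 of 47 summits, reached with the unit starting between 9339 and 9478 of chrR. Within that range 18 of the 19 RPL22 summits lay in mature rRNA, against 11 of the 28 RPL22L1 summits, and a further RPL22L1 summit lay in the unit but outside the mature genes. The offset was fitted to these summits, so the counts are a description and support nothing by themselves. With the unit turned around, the best offset took 24 of 47 summits and 15 of the 19 RPL22 summits. The spacing of each of the other 4 units in the table, RNA45SN2 to RNA45SN5, also gave 29 summits. By this layout 18S rRNA begins between 12993 and 13132 of chrR, 5.8S between 15939 and 16078, and 28S between 17263 and 17402. The unit ends between 22689 and 22828. Below, "in 18S", "in 5.8S" and "in 28S" mean placed there by this layout, and a position within a gene is a range of 140 bases, since that many offsets were equally good.

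The chrR peaks fell into a group of very high scores inside the 45S unit and a group of much lower scores outside it. Scores are the authors' own and were used only within a list. Inside the unit lay 18 RPL22 peaks with scores from 8645 to 82832370 and 12 RPL22L1 peaks with scores from 8736 to 19798942. Outside it lay 1 RPL22 peak, at 1891 to 1950 and scored 311, and 16 RPL22L1 peaks with scores from 33 to 522. No chrR peak in either list had a score between 522 and 8645. Scores of 10000 or more were held by 17 of the 19 RPL22 peaks on chrR, against 0.113% of that list, and by 11 of the 28 RPL22L1 peaks, against 0.0935%. The chrR peaks were 0.0123% of all RPL22 peaks and 0.011% of all RPL22L1 peaks. They held 7 of the 10 highest RPL22 scores and 4 of the 10 highest RPL22L1 scores, and 17 and 9 of the 100 highest. The highest peak elsewhere lay in both lists at 57513035 to 57513064 of chromosome 19, at rank 5 for RPL22 and rank 3 for RPL22L1.

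**Figure D1:**
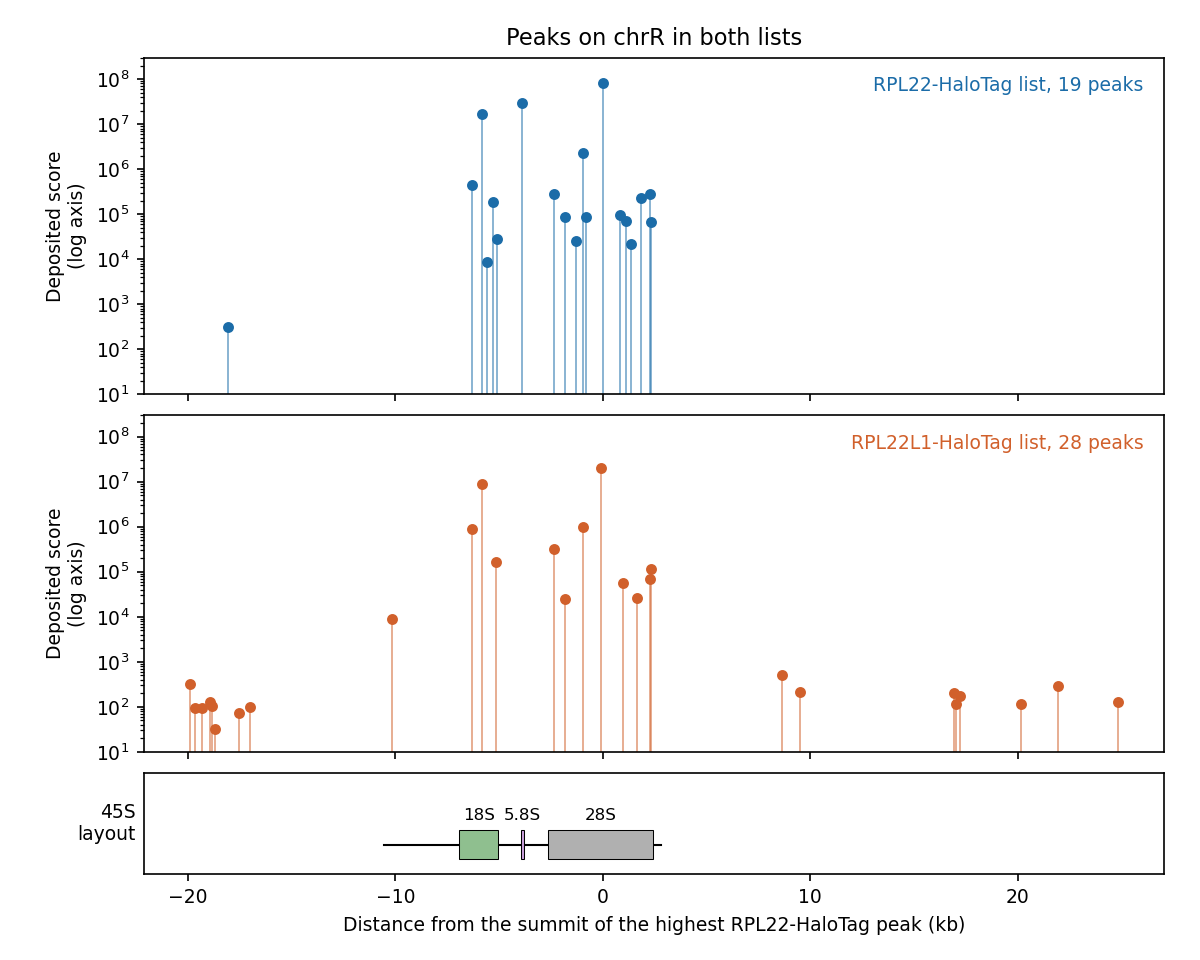
Deposited score (log axis) of each chrR peak against the distance in kb of its summit from the summit of the highest RPL22-HaloTag peak, in a panel for each list, above the fitted 45S layout (line, 45S unit; boxes, 18S, 5.8S and 28S). Scores of separate libraries share no scale. All peaks with scores of 8645 or more lie within the unit, and all with scores of 522 or less lie outside it.

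The highest peak of each list lay in 28S rRNA, and both peaks overlapped. In the RPL22 list it ran from 19732 to 20088 with its summit at 19968 and a score of 82832370. At 357 bases it was also the widest peak of the whole list. In the RPL22L1 list it ran from 19826 to 20107 with its summit at 19871, a score of 19798942 and a width of 282 bases, the fourth rank by width. The peaks shared 263 bases, which was 73.7% of the RPL22 peak and 93.3% of the RPL22L1 peak. The RPL22L1 summit lay 97 bases before the RPL22 summit. By the layout the RPL22 summit falls at base 2567 to 2706 of 28S and the RPL22L1 summit at base 2470 to 2609. Those ranges overlap because of the fitted offset, while the distance between summits does not depend on it.

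The RPL22 peak with the second rank had no counterpart in the RPL22L1 list. It ran from 16018 to 16092 with its summit at 16078 and a score of 29376167. It was the single chrR peak placed in 5.8S rRNA, which pairs with 28S in the large subunit. By the layout its summit falls at base 1 to 140 of 5.8S, and 15 to 75 of its bases lie in that gene, depending on the offset. The offset was fitted to this summit among the others. Over the offsets best for the RPL22L1 list alone, 17 to 18 of the 19 RPL22 summits lay in mature genes. The highest of those offsets put the summit at 16078 before 5.8S, in the internal spacer, so its place in 5.8S depends on the fit. The RPL22L1 list held no peak between 14876 and 17609, and the nearest RPL22L1 peak lay 1142 bases away. Copies of 5.8S elsewhere were also looked at. Of 12 annotated 5.8S pseudogenes taken to lie on the chromosomes, 6 held an RPL22 summit and 3 an RPL22L1 summit. All 3 RPL22L1 summits lay at the very base of an RPL22 summit, in LOC110467521 and LOC110467523 on chromosome 20 and in RNA5-8SP4 on chromosome 19. Of these 3 the highest RPL22L1 peak was in LOC110467523 (rank 827, and rank 307 for RPL22), and the highest RPL22 peak in LOC110467521 (rank 237, and rank 5451 for RPL22L1). RNA5-8SP3 on chromosome 9 held the highest RPL22 peak among them, with a score of 13050 and rank 134, and no overlapping RPL22L1 peak. Of the 6 RPL22 summits, 4 lay within 11 bases of the start of the pseudogene in the table and 2 further in. Reads can be divided between near-identical copies, and the sources used here do not give the treatment of reads that match more than one place.

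In 18S rRNA lay 5 RPL22 peaks and 3 RPL22L1 peaks, and each of the 3 overlapped an RPL22 peak. The peak with rank 3 for RPL22 and rank 2 for RPL22L1 lay there, at 14108 to 14178 and at 14123 to 14178. Its scores were 16482990 and 8759318, and both summits were at 14166. The peak at 13605 to 13668 had the same start, end and summit in both lists, at rank 7 for RPL22 and rank 10 for RPL22L1. Near the 3′ end of 18S, peaks with ranks 82 and 50 ended at the same base, 14875. The 5′ part of the gene held no peak, and the first summit, at 13654, fell at base 523 to 662 of 18S. Peaks of the RPL22 list at 14400 to 14429 (rank 187) and at 14657 to 14717 (rank 16) had no RPL22L1 peak over them. The nearest RPL22L1 peaks lay 221 and 108 bases away.

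In 28S rRNA 12 RPL22 peaks covered 1188 bases, or 23.5% of the gene, and 8 RPL22L1 peaks covered 896 bases, or 17.7%. In 18S the covered share was 12.9 to 13.7% and 8.35 to 9.1%, depending on the offset. Per kilobase of gene the RPL22 summits numbered 2.37 in 28S and 2.68 in 18S, and the RPL22L1 summits 1.58 and 1.61. Peaks were therefore about as frequent per length in both genes. The median width of RPL22 peaks was 87.5 bases in 28S and 61 in 18S. For RPL22L1 it was 61 and 56 bases, from 8 and 3 peaks. The RPL22L1 widths ran from 30 to 323 bases in 28S and from 50 to 64 in 18S, so the 28S peaks were not uniformly wider in that list.

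Away from the highest peak, several 28S peaks had their summit at the same base in both lists, mostly with differing edges. The peak at 19023 to 19097 had the same start, end and summit in both, at rank 4 for RPL22 and rank 8 for RPL22L1. Near the 5′ end of 28S the peaks at 17611 to 17719 (RPL22, rank 10) and at 17610 to 17658 (RPL22L1, rank 28) shared the summit 17633. The summit at 18167 was also shared, with ranks of 36 and 137. Near the 3′ end the summit at 22225 was shared by a peak of 129 bases in the RPL22 list (rank 9) and one of 33 bases in the RPL22L1 list (rank 74). The last peaks in the gene, which began at 22282 in both lists, had ranks of 46 and 57 and summits 2 bases apart.

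Other stretches of 28S were divided differently by the lists. The RPL22L1 peak at 20807 to 21129, the widest on chrR in that list at 323 bases, spanned a pair of RPL22 peaks at 20805 to 20906 (rank 31) and 21000 to 21099 (rank 44). Its summit lay 131 bases from that of the first and 127 from that of the second. In the RPL22 list 4 peaks of 28S had no RPL22L1 peak over them. The highest of these ran from 21722 to 21857 with a score of 228227 and rank 13, and the nearest RPL22L1 peak was 58 bases off. The others lay at 19149 to 19178 (rank 34), 18650 to 18679 (rank 91) and 21324 to 21382 (rank 98). In the RPL22L1 list the peak at 21591 to 21663 (rank 133) was the only one of 28S without an RPL22 peak over it.

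**Figure D2:**
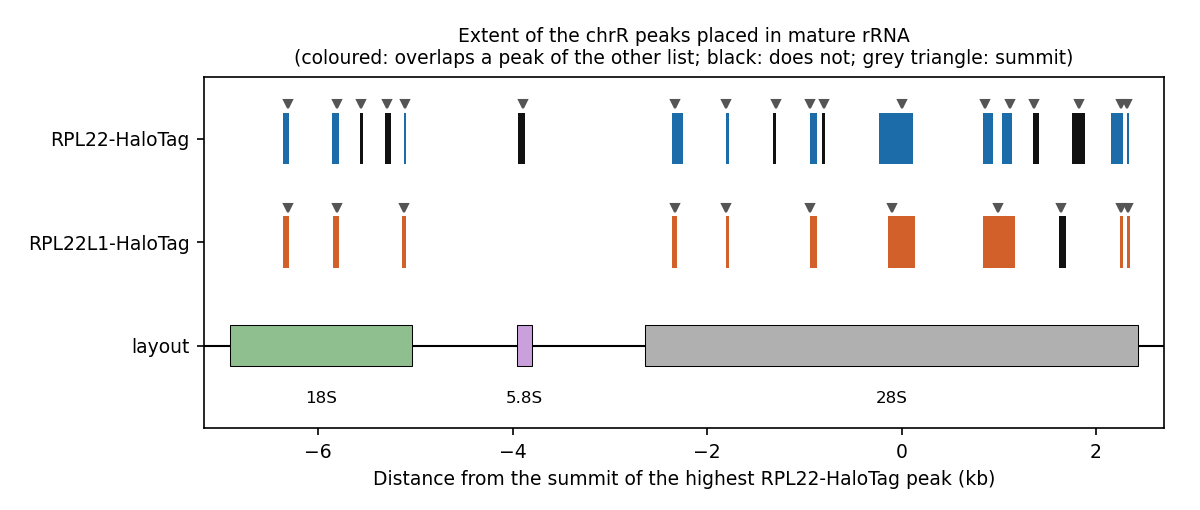
Extent of the chrR peaks placed in mature rRNA, drawn to scale as distance in kb from the summit of the highest RPL22-HaloTag peak. Coloured bars overlap a peak of the other list, black bars do not, and triangles mark summits. In the RPL22-HaloTag row 7 of 18 bars are black, including the one in 5.8S, and in the RPL22L1-HaloTag row 1 of 11.

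Overlap between the lists was counted for peaks that shared at least 1 base. On chrR 11 of the 19 RPL22 peaks overlapped an RPL22L1 peak, or 57.9% (33.5 to 79.7%), against 17.4% of the whole RPL22 list. In the other direction 10 of the 28 RPL22L1 peaks did, or 35.7% (18.6 to 55.9%), against 10.6% of the whole list. The whole lists hold mostly low scores, so the share was also taken among scores of 10000 or more. The chrR peaks remained higher there, with a median score of 186642 against 23587 elsewhere for RPL22 and of 161563 against 29108 for RPL22L1. Among these the share for RPL22 was 11 of 17 on chrR, or 64.7% (38.3 to 85.8%), and 141 of 157 elsewhere, or 89.8% (84.0 to 94.1%). For RPL22L1 it was 10 of 11 on chrR, or 90.9% (58.7 to 99.8%), and 140 of 227 elsewhere, or 61.7% (55.0 to 68.0%). The chrR share was thus the lower one for RPL22 and the higher one for RPL22L1. The differences were not tested. All 16 RPL22L1 peaks outside the 45S unit lacked an overlapping RPL22 peak, an overlapping share of 0.0% (0.0 to 20.6%). The RPL22 list held 1 peak, of 60 bases, outside the unit, so a low share was nearly fixed in advance and is not compared with the whole list. Counted in bases, 829 were covered in both lists, which was 52.5% of the 1579 RPL22 bases and 46.6% of the 1780 RPL22L1 bases. Inside the unit those shares were 54.6% and 75.6%, the second moving by over 1.5-fold because the RPL22L1 peaks in the spacer drop out.

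**Figure D3:**
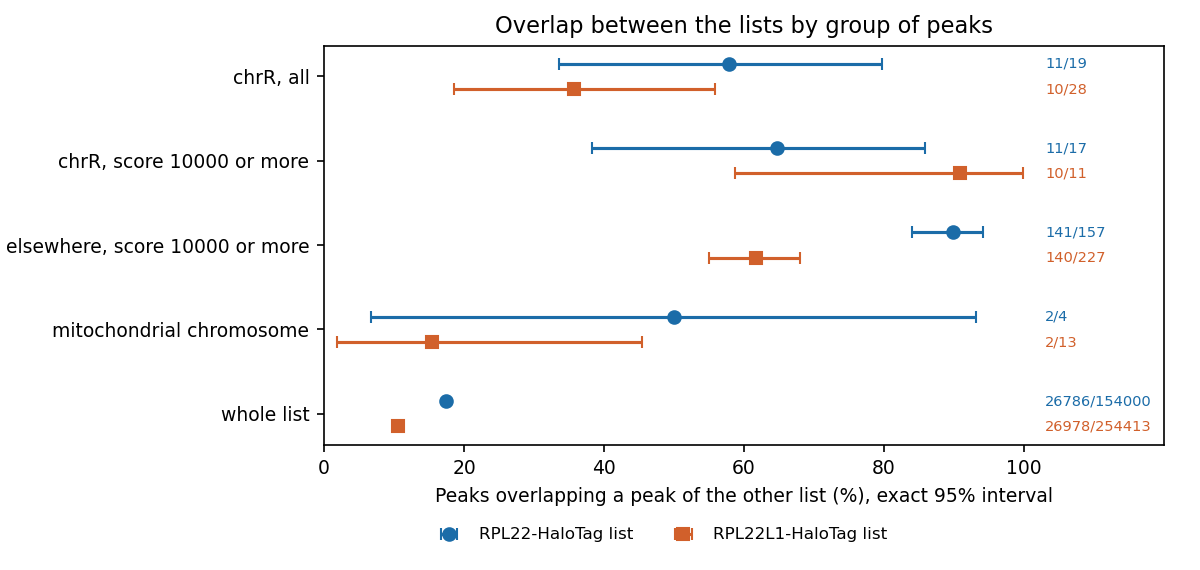
Percentage of peaks that overlap a peak of the other list by at least 1 base, by group of peaks, with exact 95% binomial intervals; the fractions at the right give the peaks behind each point. Among scores of 10000 or more the chrR point is at 64.7% for RPL22-HaloTag and 90.9% for RPL22L1-HaloTag, and the point elsewhere is at 89.8% and 61.7%.

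The edges of the 11 overlapping pairs were compared next. The summit was at the same base in 6 of them, the start in 3 and the end in 5. Their summits differed by at most 15 bases in 8 pairs and by 97 to 131 bases in the other 3, which were the highest pair and the pairs under the broad RPL22L1 peak of 28S. Pairs outside chrR whose scores were both 10000 or more had the same summit in 63 of 109 cases, or 57.8% (48.0 to 67.2%), close to the 54.5% (23.4 to 83.3%) on chrR. Among these the largest distance between summits was 10 bases, against 131 on chrR. Over all 27192 pairs outside chrR the summit was the same in 6.12% (5.84 to 6.41%), and the largest distance between summits was 208 bases.

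**Figure D4:**
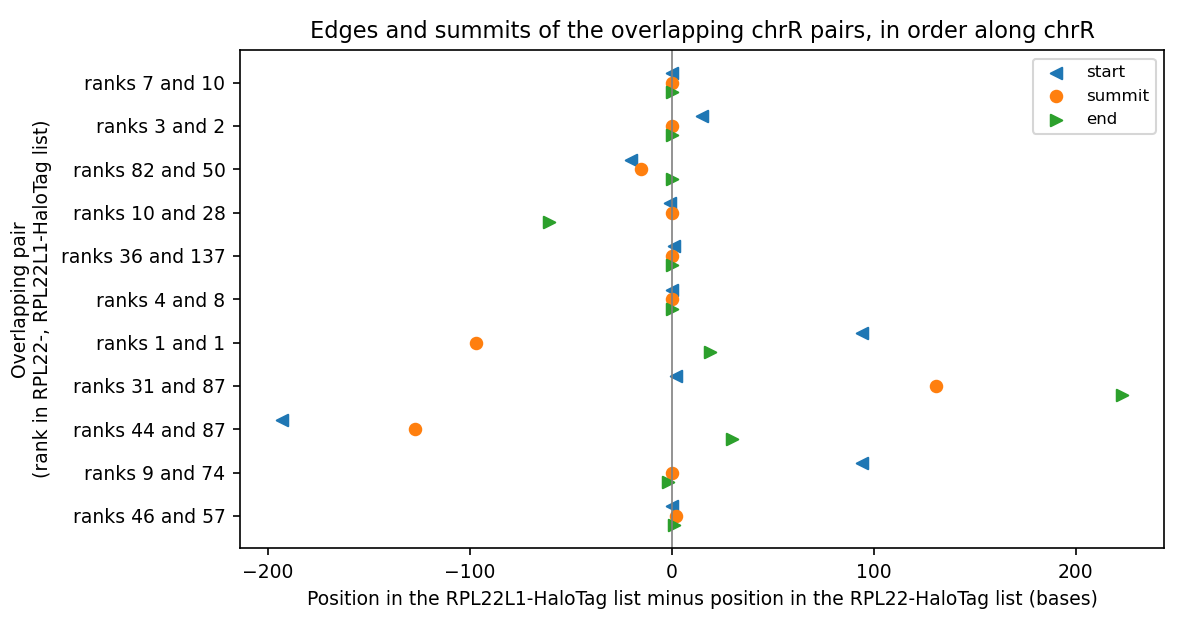
Position of the start, summit and end in the RPL22L1-HaloTag list minus that in the RPL22-HaloTag list, in bases, for each of the 11 overlapping pairs in order along chrR, labelled by rank in each list. Summits lie at 0 in 6 pairs and beyond 90 bases from 0 in 3.

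Few chrR peaks inside the unit were flat, which was also so of other peaks with scores of 10000 or more, and several were broad. Flat peaks, with a width of 30 bases and a central summit, were 64.9% of all RPL22 peaks and 77.9% of all RPL22L1 peaks. On chrR 1 of 19 RPL22 peaks was flat, the one at 14846 to 14875, and 6 of 28 RPL22L1 peaks, all outside the unit. Elsewhere, among scores of 10000 or more, 7 of 157 RPL22 peaks (4.46%) and 1 of 227 RPL22L1 peaks (0.441%) were flat. Widths of 100 bases or more were held by 1.24% of all RPL22 peaks and 1.35% of all RPL22L1 peaks, but by 6 of 19 and 3 of 28 on chrR. All 6 such RPL22 peaks lay in 28S. Outside chrR, peaks with scores of 10000 or more had a median width of 33 bases in the RPL22 list, where 0 of 157 reached 100 bases, and of 40 bases in the RPL22L1 list, where 6 of 227 did.

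The spacers were nearly empty in the RPL22 list. Its lone peak outside the unit, at 1891 to 1950, had rank 3424, and the nearest RPL22L1 peak lay 484 bases away. In the RPL22L1 list 1 peak lay inside the unit before 18S, in the 5′ external transcribed spacer, at 9766 to 9795 with a score of 8736 and rank 263. Its summit fell 314 to 453 bases into the unit, and the nearest RPL22 peak was 3809 bases off. Its score was the lowest of that list within the unit. No peak of either list lay between 9796 and 13604, which takes in the remainder of that spacer and the 5′ part of 18S. In the internal spacers on either side of 5.8S no summit was placed. The offset was chosen to put the most summits into mature genes, so empty internal spacers were favoured in advance. The 16 RPL22L1 peaks outside the unit lay at 76 to 2997, before it, and at 28565 to 44819, after it. Those before the unit scored 33 to 319, and all 6 flat ones were among them. Those after it scored 115 to 522, with 3 of them close together at 36856 to 37216 and no peak of either list between 29511 and 36855. The highest of all ran from 28565 to 28690 with a score of 522 and rank 8055, and the lowest from 1258 to 1287 with a score of 33 and rank 233151. Their median score was 121.5, beside 124 for the whole RPL22L1 list.

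Other rRNA genes held 3 RPL22 peaks and 5 RPL22L1 peaks, pseudogenes not counted. The pseudogenes were looked at after values had been seen. Of the units, 3 were taken to lie on a chromosome, and their 45S, 18S, 5.8S and 28S genes held 0 summits in both lists. So did 8 placed 18S pseudogenes and 6 placed 28S pseudogenes. The 5S genes, which RNA polymerase III transcribes from a cluster on chromosome 1, held 1 summit in each list among 17 placed copies. Both were in RNA5S9 (228628146 to 228628266), at bases 228628154 to 228628222 in the RPL22 list, with a score of 1117 and rank 627, and at 228628155 to 228628216 in the RPL22L1 list, with a score of 2698 and rank 540. The summits were 1 base apart. Of 510 pseudogenes of 5S, 47 held an RPL22 summit and 25 an RPL22L1 summit, with 17 in common. Of the 49 RPL22 summits 17 lay in overlapping peaks, and of the 25 RPL22L1 summits 16, against 17.4% and 10.6% of the whole lists. The median ranks of these peaks were 18514 for RPL22 and 83348 for RPL22L1. The highest of these peaks had rank 598 for RPL22 (RNA5SP473) and rank 3118 for RPL22L1 (RNA5SP358). Their overlapping shares were not matched for score. In the RPL22 list overlap was more frequent at high scores, at 74.4% of peaks outside chrR with scores of 311 or more. The differences between the 5S pseudogenes and the whole lists were not tested. Mitochondrial 16S rRNA (RNR2), of the separate mitochondrial ribosome, held 2 summits in each list, none of them in overlapping peaks. The whole lists, with overlapping shares of 17.4% and 10.6%, hold mostly low scores. Both RPL22 peaks of RNR2 scored above 10000 (103464 and 35504). At scores of 10000 or more, 89.8% of RPL22 peaks outside chrR overlapped. The RPL22L1 peaks of RNR2 scored 21410 and 3862, and 61.7% of RPL22L1 peaks outside chrR overlapped at 10000 or more. These differences were not tested. The RPL22 peaks, at 1824 to 1853 and 2258 to 2292, had ranks of 29 and 69, and the RPL22L1 peaks, at 1693 to 1746 and 2126 to 2155, had ranks of 150 and 421. Mitochondrial 12S rRNA (RNR1) held 2 RPL22L1 summits, with ranks of 432 and 535, and 0 RPL22 summits. All 17 RPL22 peaks of chrR with scores of 10000 or more ranked at 98 or better, and the RPL22 peaks of mitochondrial 16S lay among them in rank. The 11 such RPL22L1 peaks ranked at 137 or better, and all 4 RPL22L1 peaks of mitochondrial rRNA lay below them. The 5S peaks lay below in both lists.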

How the data were processed

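The authors deposited 1 peak list for RPL22-HaloTag and 1 for RPL22L1-HaloTag, each of 10 columns without a header. Groups came from the genotype labels. Per the submitters' processing notes, cutadapt 4.8, STAR 2.7.10a, UMI-tools 1.1.5, MACS3 3.0.0a6 and the build hg38 were used, with no role or setting given. The deposited score is a whole number of unstated scale. The other columns used are the deposited start, end and summit offset (other values, in bases). The control, the treatment of reads with several matches, the number of reads behind each list and the sequence and length of chrR are not given in the sources used here, so depth is unknown.

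Positions were counted from 1. Ranks were taken within a list, with ties at the lowest rank number. Summits were assigned to RefSeq genes of GRCh38.p14 that contain them. Genes taken to lie on unplaced sequences were not used, except for the spacing within units. Such sequences are not named in the source, so they were inferred from gene positions that fall far back within the order of a chromosome. A peak was flat when 30 bases wide with the summit offset at 15. Computations used pandas 2.3.3 and numpy 2.4.6 under Python 3.11.15. Intervals came from scipy 1.17.1 and plots from matplotlib 3.10.9. Tested on simulated data, the overlap search differed from a direct search in 0 of 5641 pairs. The range returned by the layout scan held the planted offset in 100 of 100 cases. Every simulated summit was planted in a mature gene, so that outcome was fixed in advance and says nothing about the fit on chrR.

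The members and lists were chosen with earlier results of these data known. All chrR peaks are accounted for. Given in full are the 10 highest-ranked of each list, those of rank 100 or better without overlap, the lowest and the widest, and outside chrR the highest-ranked peak of each kind of rRNA gene. Pseudogenes, the comparison at scores of 10000 or more and the division by the 45S unit were added after the data were seen. Alternatives covered peak merging, score limits, flat peaks, list size, ranking depth, the overlap rule and the layout.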

Additional observations from a re-analysis of the deposited data

How the results depend on the processing

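Of 64 alternative values, 54 stayed close to the reported value and 10 moved. Close means inside the exact 95% interval of the reported share of peaks or summits, and within 1.5-fold for counts, covered bases and shares of bases. Taking the 10 highest peaks gave a chrR share of 70.0% in the RPL22 list, against 9 of the 20 highest. Taking the 200 highest gave 9.0% there and 5.5% in the RPL22L1 list, against 4 of its 20 highest, since few chrR peaks remain to be added. Peaks at or above the median score gave 5.0% flat in the RPL22L1 list, against 21.4%. Restriction to scores of 10000 or more gave an overlapping share of 90.9% in the RPL22L1 list, and restriction to the 45S unit 83.3%, with 75.6% of its bases covered in both lists. Counting covered bases instead of summits placed 77.0% in mature rRNA, against 61.7% of summits (46.4 to 75.5%). Adding pseudogenes gave 58 and 33 peaks in other rRNA genes, against 3 and 5. Equal list size removes nothing from the shorter list, and the median score could not remove any of the RPL22 peaks of chrR, so those unchanged values say nothing about stability. The layout was taken at its best count for each other unit and for the offsets of each list, so its unchanged 61.7% says little either. Closeness was a loose measure for shares, since 36.8% counted as close to an overlapping share of 57.9% in the RPL22 list.

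The overlapping share was lowest when at least 50% of both peaks had to be shared, at 36.8% for RPL22 and 25.0% for RPL22L1. With 19 and 28 peaks, intervals are wide. No paired analysis was possible because each group has 1 library and no test was run. The restrictions to scores of 10000 or more and to the 45S unit, and the pseudogenes, were chosen after the data were seen.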
